A study of Homo sapiens with 12 samples.

Results

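Untreated MV411 cells were compared with untreated MOLM13 cells, 2 human acute myeloid leukaemia lines, over all autosomal genes of the deposited RNA-seq count table. Of the 12 libraries of the series, 6 were compared, 3 of each line treated with the solvent DMSO. Its dose and time are not given in the labels. All 12 libraries entered the fit, which took its gene filter, scaling and spread from them. The comparison covered 34728 of the 36041 genes in the table. The 1313 genes on the sex chromosomes and the mitochondrial genome were left out. The other 6 libraries came from the same lines treated with 10 nM SGI-7079, a kinase inhibitor, for 24 h, and served as a second set of libraries in which the same line difference could be read. Per the series' description, both lines carry an internal tandem duplication of FLT3, so no group here is of a line without it. Whether an unmutated copy of FLT3 is also present was not examined. Replicates are called separate samples, but separate cultures are not stated, so the p-values describe the spread among these libraries alone, and that spread may be technical.

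As background, both lines come from leukaemias of the monocytic lineage, and each carries a translocation of the histone methyltransferase gene KMT2A (MLL). MV411 joins it to AFF1 (AF4) and MOLM13 to MLLT3 (AF9). Such fusions recruit the elongation machinery and the methyltransferase DOT1L to their target genes, of which the distal HOXA genes and the cofactor MEIS1 are the best known. FLT3 is the receptor tyrosine kinase of early haematopoietic progenitors, and its internal tandem duplication signals without ligand, to STAT5 and ERK among others. With 1 line of each fusion, differences due to the fusion, the donor's genotype, chromosome number and culture history cannot be told apart.

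The DMSO libraries held 58187065 to 60554247 counts in MOLM13 and 57328363 to 61862017 in MV411, of which autosomal genes took 91.9% and 91.8% on average. The first principal component of these 6 libraries set the lines apart and took up 71.9% of the variance. The median SD of a gene between libraries of a line was 0.06 in MOLM13 and 0.07 in MV411 on the log2 CPM scale, over the 10610 genes with a mean of at least 5 CPM. CPM are counts scaled to the size of each library with TMM factors, a scaling that sets the typical gene of both lines level. Genes named below that overlap another gene on the opposite strand, such as CIITA (DEXI), CSF1R, ERAP1 (CAST), CISH (MAPKAPK3), PTPN11 (RPL6) and HOXA11, may hold reads of that gene, since strand-specific counting is not stated. Markers were those of myeloid cells: LYZ, the lysozyme gene, was at 455 and 1752 CPM in MOLM13 and MV411, and SPI1, the master regulator of myeloid genes, at 206 and 282 CPM. CD14, the defining surface marker of mature monocytes, was near 0 in both, at 0.234 and 0.236 CPM, and CD34, the progenitor marker, was at 0.1097 and 0.05700 CPM.

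Large differences between the lines were widespread. Of 20702 autosomal genes with enough counts to test, 2676 (12.9%) were called higher in MV411 and 1991 (9.62%) called lower, where a call means an adjusted p under 0.05 and an absolute log2 fold change over 1 (edgeR's quasi-likelihood test, Benjamini-Hochberg adjustment). Without the fold threshold, 5749 (27.8%) were higher and 5514 (26.6%) lower, and in what follows higher and lower mean this. The 3 libraries of one line lay wholly above those of the other for 12637 genes (61.0%). The median log2 fold change over all genes tested was 0.03. Low-abundance genes made up most of the calls, with 1881 higher and 1150 lower among 10092 genes with a mean under 5 CPM, against 795 and 841 among the 10610 above it. Protein-coding genes gave 1698 and 1395 of the calls, and long non-coding RNAs 713 and 421.

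The same difference was present in the SGI-7079 libraries, which share no library with the DMSO comparison. In the shared fit, 2803 genes (13.5%) were called higher and 2221 (10.7%) called lower in MV411 under SGI-7079. Of the 2676 genes called higher under DMSO, 2604 had the same sign and 1970 were called in the same direction, and of the 1991 called lower these counts were 1919 and 1457. Only 5 and 11 genes, respectively, passed the adjusted p in the opposite direction. Both sets of libraries come from the same lines, so this shows that the difference recurs between sets of libraries, not between leukaemias.

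**Figure D1:**
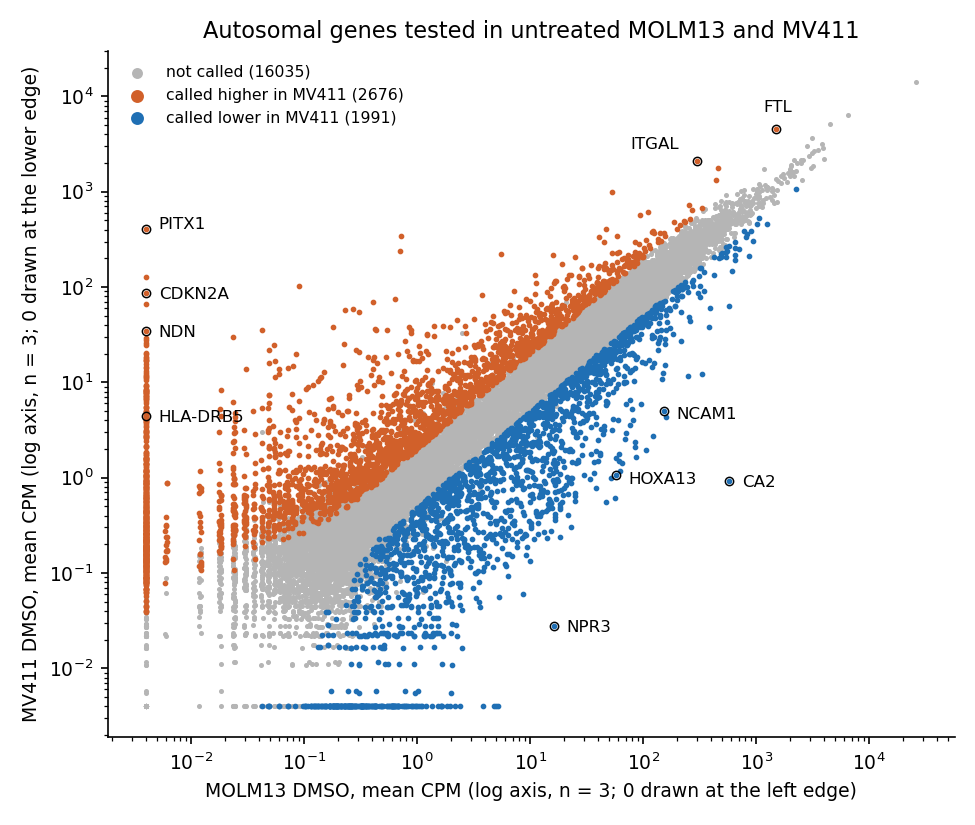
Mean level of each autosomal gene tested in untreated MOLM13 (horizontal axis) and MV411 (vertical axis), in CPM on log axes, 3 libraries each, with a level of 0 drawn at the edge. The column of points at the left edge holds genes without a count in MOLM13 that reach up to 408 CPM in MV411, and the row of points at the lower edge ends at 5.23 CPM in MOLM13.

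The 12 genes with the largest called increases were all without a single count in the 3 MOLM13 DMSO libraries. PITX1, a homeobox transcription factor of hindlimb and pituitary development, had 0 counts in MOLM13 and 405, 402 and 416 CPM in MV411. Against the limit of 3 counts over a group that a count of 0 allows, it was at least 22606-fold higher. UNC5C, a receptor of the axon guidance factor netrin, was at 133, 129.9 and 119 CPM in MV411, at least 7045-fold higher. CDKN2A, which encodes the cell-cycle inhibitor p16INK4A and the tumour suppressor ARF, was at 83.6, 86.4 and 89.6 CPM, at least 4798-fold higher. The MV411 libraries lay close together for each of these genes, and no MOLM13 library had a count of any of them.

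NDN, the paternally expressed growth suppressor necdin of the Prader-Willi region, was at 32.8, 34.3 and 37.3 CPM in MV411 and at 0 counts in MOLM13. PROSER1 (mean 65.9 ± 0.538 CPM), TMEM233 (28.1 ± 0.921 CPM), MPV17L (18.6 ± 1.42 CPM), CEP15 (17.9 ± 0.696 CPM) and CSMD3 (20.2 ± 0.726 CPM) showed the same arrangement. So did 3 of the chromosome 19 zinc finger genes, ZNF254 (28.95 ± 2.84 CPM), ZNF253 (26.2 ± 1.64 CPM) and ZNF91 (20.02 ± 2.48 CPM), members of the KRAB family that silences retroelements. Zinc finger genes resemble each other in sequence, and how reads matching several of them were counted is not stated. The long non-coding RNAs EPIST, beside PITX1, and UNC5C-AS1, which overlaps UNC5C on the opposite strand, were also at 0 counts in MOLM13, with 24.4 ± 1.02 and 12.5 ± 0.822 CPM in MV411. Whether counting used the strand is not stated, so the reads of UNC5C and UNC5C-AS1 cannot be told apart.

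Genes at 0 were spread unevenly between the lines. With at least 5 CPM in the other line, 53 autosomal genes had no count in MOLM13 and 1 had none in MV411. The 53 comprised 42 protein-coding genes and 9 long non-coding RNAs, 14 lay on chromosome 19, of which 12 carried ZNF symbols, and 40 had no count in the MOLM13 SGI-7079 libraries either. Not all were clear cases: ENSG00000285238 had counts in only 1 MV411 library (0, 23.4 and 0 CPM). RPL17-C18orf32 had 505 counts over the MOLM13 SGI-7079 libraries. The 1 gene in the other direction was TNFRSF19, a receptor of the tumour necrosis factor family, at 5.55, 5.63 and 4.53 CPM in MOLM13. A lesser threshold gave the same asymmetry: of genes with at least 10 CPM in one line, 49 were below 1% of that level in MOLM13 and 2 in MV411. Between 1% and 5% the order was the other way, with 37 genes in MOLM13 and 83 in MV411, so that below 5% the lines had 86 and 85.

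The promoters of PITX1 and NDN are shown as examples of genes at 0 in MOLM13 and expressed in MV411, and were not picked as typical of them. Each sequence runs from 250 bases before to 50 after the RefSeq start of the gene (GRCh38.p14), in the direction of transcription. CG dinucleotides, the sites of DNA methylation in human cells, are in capitals.
PITX1 promoter: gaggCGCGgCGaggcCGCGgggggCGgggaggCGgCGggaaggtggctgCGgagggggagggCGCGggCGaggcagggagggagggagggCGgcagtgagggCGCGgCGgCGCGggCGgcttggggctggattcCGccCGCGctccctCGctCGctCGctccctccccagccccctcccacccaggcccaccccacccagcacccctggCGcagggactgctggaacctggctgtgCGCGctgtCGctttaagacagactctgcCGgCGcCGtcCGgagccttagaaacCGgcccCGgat
NDN promoter: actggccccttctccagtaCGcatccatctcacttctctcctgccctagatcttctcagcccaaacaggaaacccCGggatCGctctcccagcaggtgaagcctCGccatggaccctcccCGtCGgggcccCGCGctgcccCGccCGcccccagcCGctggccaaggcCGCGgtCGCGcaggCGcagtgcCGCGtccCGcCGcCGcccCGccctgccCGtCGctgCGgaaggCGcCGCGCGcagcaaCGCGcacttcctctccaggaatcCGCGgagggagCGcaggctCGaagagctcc
The PITX1 sequence lies at chr5:135034179-135034478 and the NDN sequence at chr15:23687256-23687555, both on the minus strand, and each holds 35 CG dinucleotides. By the deposited positions PITX1 runs from 135027734 to 135034757, so the stretch shown lies within that span, and the 2 annotations differ on its start. The 40 genes at 0 in MOLM13 with a promoter in the RefSeq table had a median of 22 CG dinucleotides (upper quartile 30.25). The median was 27 for the 8242 genes with at least 5 CPM in MV411 and a promoter. Both sequences shown are thus richer in CG than most genes at 0, and the CDKN2A promoter, not shown, holds 28. Methylation was not measured in these samples.

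The largest called decreases were of genes that kept a trace in MV411. CA2, the cytosolic carbonic anhydrase II, fell from 603, 554 and 576 CPM in MOLM13 to 1.08, 0.852 and 0.838 CPM in MV411, a log2 fold change of -9.29 (SE 0.12, adjusted p = 5.05e-15). NPR3, the clearance receptor of natriuretic peptides, was at 16.2 ± 0.394 CPM in MOLM13 and 0.0278 ± 0.0482 CPM in MV411 (SD, n = 3), a log2 fold change of -9.07. These were the 2 genes below 1% in MV411. IGF2BP3, an oncofetal RNA-binding protein, had a log2 fold change of -6.38, the transporter of cationic amino acids SLC7A2 -5.76, the actin motor MYO6 -5.73, the tyrosine phosphatase PTPN13 -5.73 and HOXA13 -5.76. The other 5 of the 12, SYNPO2, RAB13, DYNC1I1, MSRB3 and ATP9A, ranged from -6.49 to -5.74. All 12 had the same sign in the SGI-7079 libraries.

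Among abundant genes the differences were smaller and of other kinds. The 8 most abundant genes called higher included FTL, the first of them, and FTH1, the light and heavy chains of the iron store ferritin. FTL was at 1595, 1318 and 1575 CPM in MOLM13 and 4503, 4512 and 4581 CPM in MV411 (log2 fold change 1.60, SE 0.06), and FTH1 at means of 442 and 1313 CPM (1.57, SE 0.03). ITGAL, the alpha chain of the leukocyte integrin LFA-1, was at 286, 311 and 292 CPM in MOLM13 and 2112, 2008 and 2157 CPM in MV411 (2.82, SE 0.04, adjusted p = 1.09e-14). SLC44A1, a choline transporter, was 18.6-fold higher, at a mean of 986 CPM in MV411. LYZ, HLA-B, NUP210 and MYO1G completed the 8. The 8 most abundant genes called lower were RPS18, RPS12, NACA, RPL21, PPP1R27, DDX21, ELANE and SMC4, of which RPS12 had a log2 fold change of -1.44 and ELANE, neutrophil elastase, -2.01.

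Differences followed position in the genome. Over the 10610 genes with a mean of at least 5 CPM, the median log2 fold change was -0.70 on chromosome 13 (190 genes), -0.56 on chromosome 6 (547 genes), -0.53 on chromosome 10 (425 genes) and -0.36 on chromosome 12 (595 genes), beside -0.03 over all autosomes. On chromosome 13, 154 of the 190 genes were lower in MV411 and 19 higher. On chromosome 6 these counts were 424 and 58, and on chromosome 10 316 and 48. The highest medians were 0.22 on chromosome 19, 0.19 on chromosome 22 and 0.13 on chromosome 16. In the SGI-7079 libraries the medians were -0.68, -0.56, -0.56 and -0.36 on chromosomes 13, 6, 10 and 12, and 0.17 on chromosome 19. The number of copies of these chromosomes was not measured in these libraries, and its part in the differences was not tested.

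**Figure D2:**
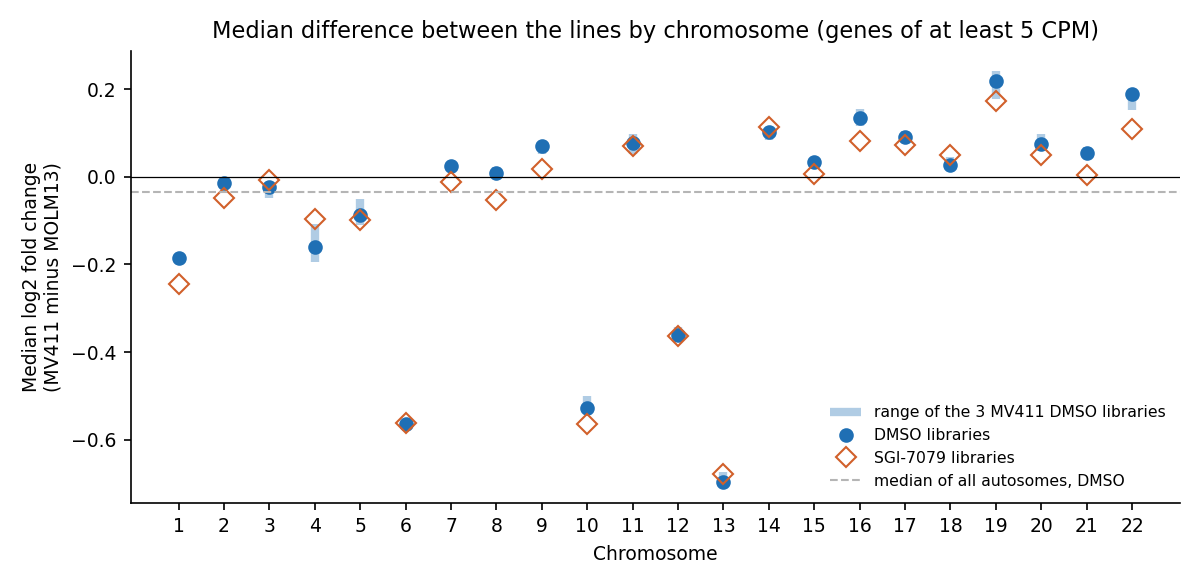
Median log2 fold change (MV411 minus MOLM13) of the genes of each autosome with a mean of at least 5 CPM, for the DMSO libraries (circles, with the range over the 3 MV411 libraries each set against the MOLM13 mean) and the SGI-7079 libraries (diamonds). Chromosomes 6, 10, 12 and 13 lie at or below -0.36 in both sets, and the others between -0.25 and 0.22.

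Sliding windows of 51 neighbouring genes placed the differences on parts of chromosomes. The highest window lay on chromosome 14 from PALS1 to BATF, where the median log2 fold change was 1.10 and 48 of 51 genes were higher in MV411. The lowest window of the same chromosome was at -0.19, and the whole of it had a median of 0.10. Of 9510 windows, 177 had a median over 0.5, of which 58 were on chromosome 14 and 119 on chromosome 19, where the highest ran from FCGRT to ZNF432 (0.66). A further 1239 windows had a median under -0.5, with 317 on chromosome 6, 257 on chromosome 12, 253 on chromosome 10, 194 on chromosome 1, 140 on chromosome 13 and 78 on chromosome 5.

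The lowest windows ran from RCBTB2 to TGDS on chromosome 13 (median -0.93), from GTF3C6 to TNFAIP3 on chromosome 6 (-0.86) and from OSBPL8 to CHPT1 on chromosome 12 (-0.77). Chromosome 1 was divided, with a window from KLHL17 to ACOT7 at its start at 0.33 and one from DUSP12 to TOR1AIP2 at -0.68. Chromosome 5 was too, with -0.66 in a window that starts at DROSHA and 0.35 from CPEB4 to RNF130 near its other end. The same windows in the SGI-7079 libraries had medians of 1.10 (PALS1 to BATF), 0.17 (KLHL17 to ACOT7), -0.65 (DUSP12 to TOR1AIP2), -0.70 (from DROSHA) and 0.30 (CPEB4 to RNF130). The KLHL17 to ACOT7 window was thus lower there than under DMSO.

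**Figure D3:**
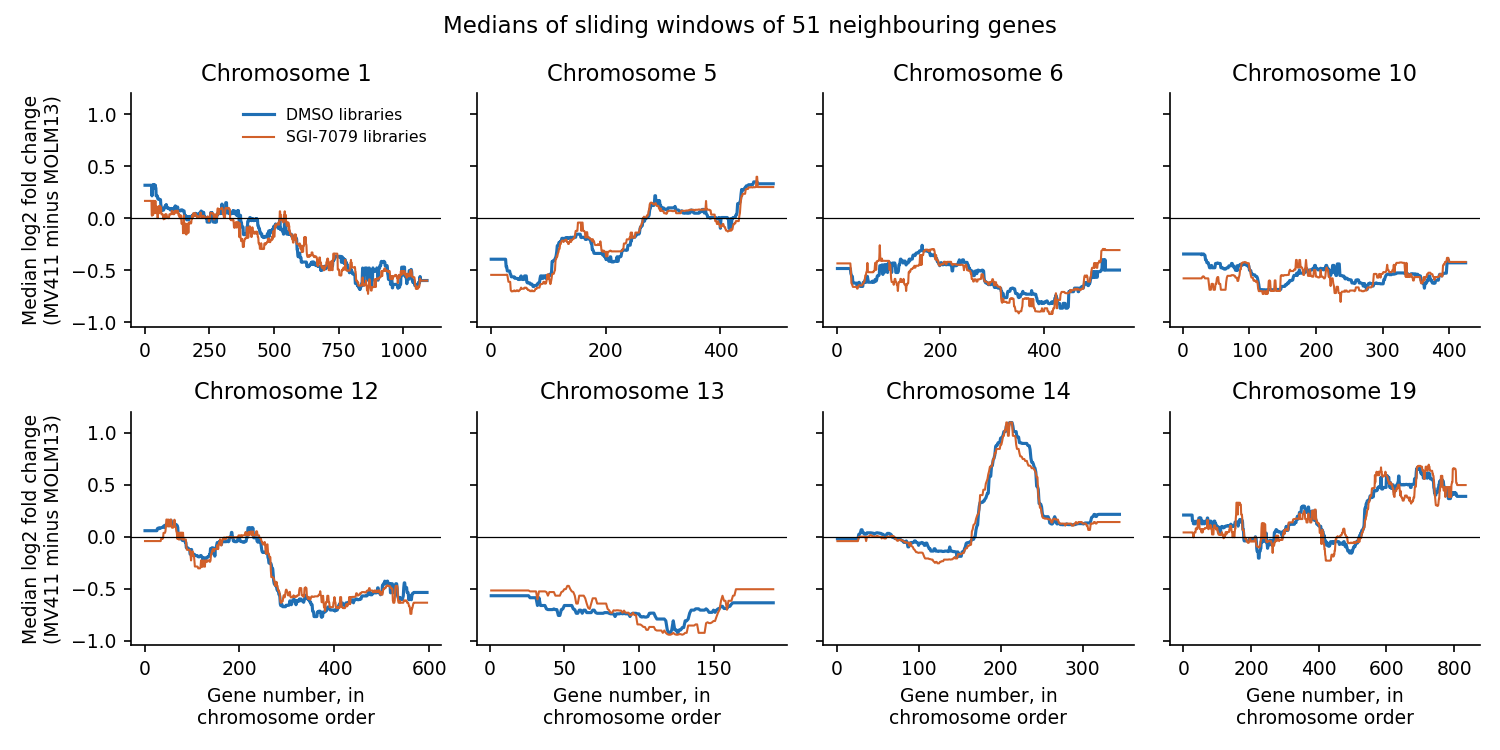
Median log2 fold change (MV411 minus MOLM13) in sliding windows of 51 neighbouring genes with a mean of at least 5 CPM, plotted against gene number in chromosome order on 8 chromosomes, for the DMSO (blue) and SGI-7079 (orange) libraries, with genes at a chromosome's ends given the window nearest to them. Chromosome 14 has a peak of 1.10, chromosome 12 steps down to its lowest value of -0.77, and chromosomes 6, 10 and 13 lie below 0 over their whole length.

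Neighbours that were all lower or all higher formed 35 runs of at least 10 protein-coding genes, 22 lower and 13 higher in MV411. The longest held 23 genes from LYRM2 to PREP on chromosome 6 (89568144 to 105454062, hg38), with log2 fold changes from -5.09 to -0.36 and a median of -0.89. All 23 had the same sign under SGI-7079. The next, of 17 genes from ATG5 to CD164, followed on the same chromosome (median -0.90). There were 4 runs of 15: GRK6 to COL23A1 on chromosome 5, all higher, and DNMBP to TWNK and BTRC to NFKB2 on chromosome 10 and ATXN2 to OAS2 on chromosome 12, all lower. Where the median of a gene group is printed in what follows, it is also given relative to neighbours, after subtracting from each gene the median of its 51-gene window, a measure added after seeing the data.

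The genes of the KMT2A fusions themselves differed. KMT2A was at 75.3, 84.9 and 81.9 CPM in MOLM13 and 179.9, 179 and 173 CPM in MV411, a log2 fold change of 1.14 (SE 0.04, adjusted p = 9.93e-11). MLLT3, the partner in MOLM13, was at 13.5, 14.7 and 14.9 CPM there and 1.35, 2.29 and 1.66 CPM in MV411 (-3.02, SE 0.23, adjusted p = 6.62e-08). AFF1, the partner in MV411, was at 228, 236 and 221 CPM in MOLM13 and 185, 192 and 181 CPM in MV411 (-0.30, SE 0.04), so it was lower in the line whose fusion holds it. Gene-level counts include reads of the fusion transcripts and of the unrearranged copies alike. Of the 13 partners and cofactors listed, 6 were higher and 4 lower, with a median of 0.05 (-0.01 relative to neighbours). DOT1L, the H3K79 methyltransferase, had a log2 fold change of -0.31, the partner MLLT10 -0.84, the elongation factor ELL 0.58 and the kinase CDK9 0.38.

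The HOXA cluster was divided along its length. The values of 10 of its protein-coding genes are given here. HOXA9, the central fusion target, was at 76.8, 73.6 and 78.1 CPM in MOLM13 and 78.5, 73.6 and 73.7 CPM in MV411 (log2 fold change -0.02, SE 0.05, adjusted p = 0.79), and HOXA10 at 95.8 ± 2.17 and 90.1 ± 5.31 CPM (-0.09, adjusted p = 0.25). The libraries of the lines overlapped for both genes. The flanks differed: HOXA13 was at 59.8, 56.4 and 56.4 CPM in MOLM13 and 0.8396, 1.403 and 0.936 CPM in MV411 (-5.76, SE 0.16, adjusted p = 3.68e-12), and HOXA11 at means of 41.9 and 9.79 CPM (-2.10). HOXA2 to HOXA7, which were at 1.16 to 6.33 CPM in MOLM13, were at 0.0223 to 0.242 CPM in MV411, and each was lower (log2 fold changes -6.10 for HOXA5 to -3.58 for HOXA4).

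**Figure D4:**
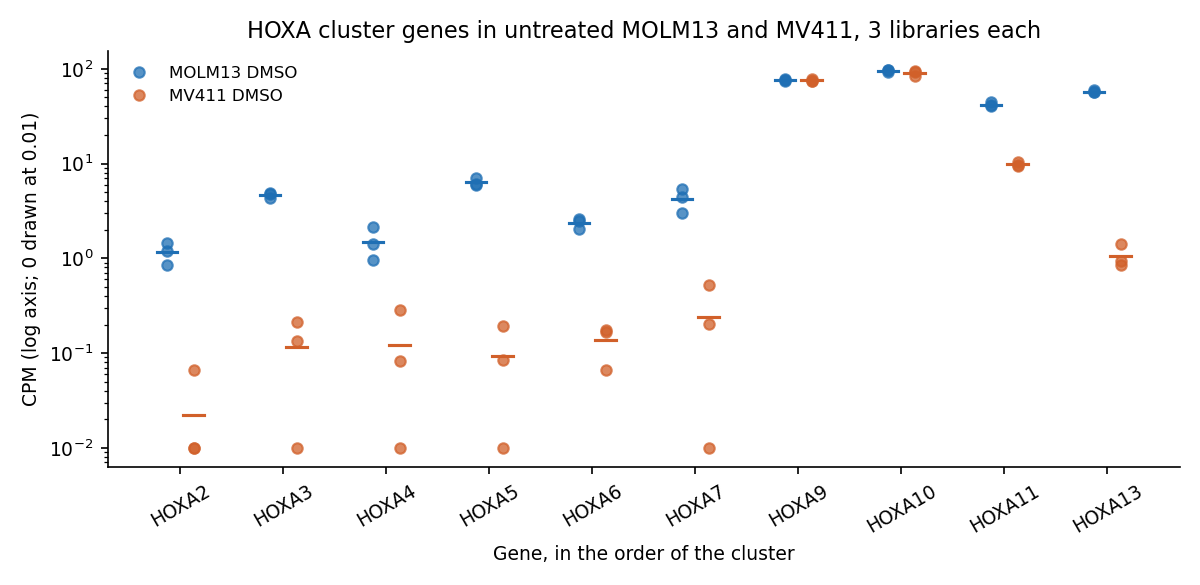
Level of 10 HOXA genes in each of the 3 MOLM13 (blue) and 3 MV411 (orange) DMSO libraries, in CPM on a log axis with 0 drawn at 0.01 and a bar at each mean, in the order of the genes along the cluster. The lines coincide at HOXA9 and HOXA10, near 76 and 96 CPM in MOLM13, and are apart at the other 8 genes drawn, with MV411 lower.

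MEIS1, the DNA-binding partner of HOXA9, was higher in MV411, at 98.8, 103 and 102 CPM against 41.03, 42.9 and 39.6 CPM in MOLM13 (1.30, SE 0.04, adjusted p = 1.47e-11). It was the 1 called increase (4%) among 25 fusion targets tested, and 14 (56%) were called lower. Over all genes tested these shares were 12.9% and 9.62%. Of the 25, 5 were higher and 17 lower, with a median log2 fold change of -1.23 (-0.55 relative to neighbours). The list includes the HOXA cluster genes, which lie side by side, so its counts and median partly restate that locus. Outside the cluster, MEF2C, a transcription factor of myeloid progenitors, had a log2 fold change of -0.87, the SUMO protease SENP6 -1.11, RUNX2 0.65 and LMO2 0.59. Of the HOXB genes, HOXB6 was at 0 counts in MOLM13 and 1.52 ± 0.236 CPM in MV411, at least 84.5-fold higher. HOXB4 (0.721 and 6.497 CPM) and HOXB3 (0.8904 and 7.14 CPM), which overlap each other in the annotation, were chosen after their values were seen, and the HOXB genes were not counted as a group.

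Transcription factors that set haematopoietic lineage were changed one by one rather than as a group. Of 40 tested, 16 were higher and 15 lower, with a median of 0.02 (0.06 relative to neighbours). TCF4, the E protein that specifies plasmacytoid dendritic cells, was at 10.6, 9.05 and 10.1 CPM in MOLM13 and 71.9, 75.4 and 68.6 CPM in MV411 (2.86, SE 0.06). RUNX3 was at means of 39.9 and 159 CPM (1.99) and IRF5, an activator of inflammatory genes in macrophages, at 45.3 and 164 CPM (1.86). IRF4, singled out after its value was seen, was at 0, 0.235 and 0.211 CPM in MOLM13 and 13.1, 12.1 and 13.4 CPM in MV411 (6.40, SE 0.43, adjusted p = 2.11e-08). In the other direction, ETS1 had a log2 fold change of -2.32, CEBPA, the regulator of granulocyte and monocyte commitment, -0.50, and, chosen after their values were seen, MITF -2.95 and GATA2 -2.17.

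Most granule genes were lower in MV411. The list holds proteins of primary granules, made by myeloblasts and promyelocytes, and of the later secondary granules, and of 13 tested, 10 were lower and 2 higher, with a median of -0.70 (-0.80 relative to neighbours). ELANE was at 886, 815 and 881 CPM in MOLM13 and 215, 202 and 225 CPM in MV411 (-2.01, SE 0.05, adjusted p = 1.57e-12). CTSG (cathepsin G) had a log2 fold change of -1.92, RNASE2 (eosinophil-derived neurotoxin) -1.82 and MPO (myeloperoxidase) -1.96, the last from a mean of 37.6 CPM in MOLM13. CFD, complement factor D, was higher (0.43), and CAMP, the other increase, rested on a mean of 0.1201 CPM in MV411.

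Monocyte markers went in both directions, 7 of 23 higher and 9 lower, with a median of -0.07 (0.08 relative to neighbours). Their summed level was 3234 to 3370.5 CPM in the MV411 libraries and 1209 to 1248 CPM in the MOLM13 libraries. LYZ made the largest part of it in both lines and had a log2 fold change of 1.94 (SE 0.03). CSF1R, the receptor of the monocyte growth factor M-CSF, was at 5.46, 6.41 and 5.65 CPM in MOLM13 and 55.7, 54.9 and 55.6 CPM in MV411 (3.25, SE 0.06, adjusted p = 6.49e-14). MS4A6A was at 46.04, 45.8 and 48.4 and 402, 405 and 413 CPM (3.12, SE 0.03), and CST3 (cystatin C) had a log2 fold change of 2.63. Lower were MNDA, the myeloid nuclear differentiation antigen (-2.88), the lysosomal protease CTSS (-1.20) and MS4A7 (-1.09). Of the phagocyte oxidase and Fc receptor genes, 5 of 12 were higher and 3 lower. NCF4, the p40 subunit of the oxidase, rose from 24.8 to 208 CPM (3.07) and FCER1G, the common gamma chain of Fc receptors, from 2.300 to 22.2 CPM (3.27).

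Genes of antigen presentation by MHC class II were higher in MV411. Peptides from outside the cell are presented on these molecules, whose genes need the coactivator CIITA. CIITA was at 10.3, 12.4 and 10.8 CPM in MOLM13 and 53.2, 54.5 and 56.2 CPM in MV411 (2.29, SE 0.07, adjusted p = 6.35e-12). HLA-DRA, the DR alpha chain, was at 6.71, 4.31 and 5.86 and 39.8, 37.01 and 46.7 CPM (2.87, SE 0.12, adjusted p = 1.75e-10). The invariant chain CD74 was at 178, 183 and 195 and 479.5, 482 and 486 CPM (1.38, SE 0.03). The groups did not overlap for any of these 3 genes, as for 61.0% of all genes tested. Of 15 genes of the list tested, 11 were higher and 2 lower, with a median of 1.38 (1.48 relative to neighbours, 2.15 in the SGI-7079 libraries). The 2 lower genes were HLA-DOB, the beta chain of the DO regulator (-2.77), and RFX5, a subunit of the X box-binding complex (-0.46).

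HLA-DRB5 had 0 counts in MOLM13 and 3.81, 4.83 and 4.698 CPM in MV411, at least 246-fold higher, and HLA-DRB1 was at 0.332, 0.561 and 0.335 and 12.3, 15.3 and 14.1 CPM. The DRB genes differ between HLA haplotypes and are near-identical to each other, so the assignment of their reads is uncertain, and HLA-DRB5 is missing from most haplotypes. Other members given for completeness were HLA-DPA1 (3.26), HLA-DPB1 (2.48), HLA-DQA1 (2.22), HLA-DQB1 (0.96) and HLA-DMA (1.17). HLA-DMB (adjusted p = 0.99) and RFXAP (adjusted p = 0.057) did not pass.

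Class II promoters carry an X box, bound by the RFX complex, and a Y box, bound by NF-Y, on which CIITA assembles. The 4 class II promoters of the RefSeq table (GRCh38.p14) that held both motifs are shown, since their genes were higher together, with the core of the X box (ACNGATG) and the Y box (CTGATTGG) in capitals.
HLA-DRB1 promoter: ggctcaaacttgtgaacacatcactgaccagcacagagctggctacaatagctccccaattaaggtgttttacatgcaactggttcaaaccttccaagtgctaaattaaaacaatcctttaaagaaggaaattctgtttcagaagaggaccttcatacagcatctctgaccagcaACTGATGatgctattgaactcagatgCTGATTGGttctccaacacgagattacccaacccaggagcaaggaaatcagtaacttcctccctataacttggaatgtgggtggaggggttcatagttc
HLA-DRB5 promoter: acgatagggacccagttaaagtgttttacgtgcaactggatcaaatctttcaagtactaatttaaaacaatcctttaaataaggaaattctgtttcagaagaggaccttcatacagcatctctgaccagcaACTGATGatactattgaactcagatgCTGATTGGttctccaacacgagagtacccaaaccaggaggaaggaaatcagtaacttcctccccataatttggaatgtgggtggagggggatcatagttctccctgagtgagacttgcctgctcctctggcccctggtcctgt
HLA-DQB1 promoter: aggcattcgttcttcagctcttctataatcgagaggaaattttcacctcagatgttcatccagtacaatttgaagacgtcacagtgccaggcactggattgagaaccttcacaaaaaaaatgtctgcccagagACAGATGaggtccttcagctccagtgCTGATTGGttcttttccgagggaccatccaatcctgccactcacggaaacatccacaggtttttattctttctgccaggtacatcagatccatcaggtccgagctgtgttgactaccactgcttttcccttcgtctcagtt
HLA-DMA promoter: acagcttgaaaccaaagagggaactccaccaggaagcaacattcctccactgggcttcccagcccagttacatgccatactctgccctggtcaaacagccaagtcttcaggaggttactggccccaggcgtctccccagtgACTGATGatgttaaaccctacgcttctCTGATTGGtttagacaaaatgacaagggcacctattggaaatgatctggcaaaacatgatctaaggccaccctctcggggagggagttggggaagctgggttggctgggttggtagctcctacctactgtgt
They lie on the minus strand of chromosome 6, at chr6:32589799-32590098, chr6:32530238-32530537, chr6:32666608-32666907 and chr6:32953048-32953347. The boxes were 19 bases apart in the first 3 and 20 in HLA-DMA. Both strands were searched, and the boxes shown do not overlap. Both motifs were found in 86 of 27305 promoters (0.315%) and in 4 of the 13 class II genes tested that had a promoter in the table. The X box core was in 7.71% of all promoters and the Y box in 4.16%. A match is a description of letters, and no binding was measured here.

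MHC class I and peptide loading differed less, with 11 of 19 higher, 7 lower and a median of 0.19 (0.18 relative to neighbours). HLA-B was at 255, 248 and 252 CPM in MOLM13 and 733, 698 and 756 CPM in MV411 (1.53, SE 0.03), and HLA-F had a log2 fold change of 2.13. Reads of one HLA allele can be lost in alignment to a reference that holds another. The trimming peptidases ERAP1 (-1.22) and ERAP2 (-2.15) and the chaperone CALR (-0.42) were lower. ERAP2 has a common inherited allele of low expression. A list compiled for inherited variation of this kind also held PEX6 (2.27), ZFP57 (-4.69) and SIGLEC14 (2.64), and of its 16 genes tested 8 were higher and 6 lower.

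Interferon-stimulated genes did not differ as a block. Of 38 tested, 10 were higher and 14 lower, with a median of -0.13 (-0.15 relative to neighbours). IFITM1 (4.66 to 49.3 CPM, 3.40) and IFITM2 (27.3 to 131 CPM, 2.26), membrane proteins that block virus entry, were higher, as was BST2, or tetherin (0.73). OAS3, an activator of RNase L (-4.50), the RNA sensor RIGI (-1.51) and SAMD9L (-1.39) were lower.

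Outputs of NF-kappaB were mostly lower in MV411, 16 of 29 against 5 higher, with a median of -0.33 (-0.22 relative to neighbours). TNF was at 259, 251 and 247 CPM in MOLM13 and 47.02, 45.1 and 53.5 CPM in MV411 (-2.38, SE 0.07, adjusted p = 3.48e-12). CXCL10, a chemokine for T cells, was at means of 79.6 and 5.21 CPM (-3.94), and the feedback inhibitor TNFAIP3 (A20) had a log2 fold change of -1.32. Of the receptors in the list, TLR2 was higher, from 28.96 to 156 CPM (2.43), as was TLR4, from 1.05 to 6.25 CPM (2.56), and the adaptor TRAF1 was higher (3.05).

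**Figure D5:**
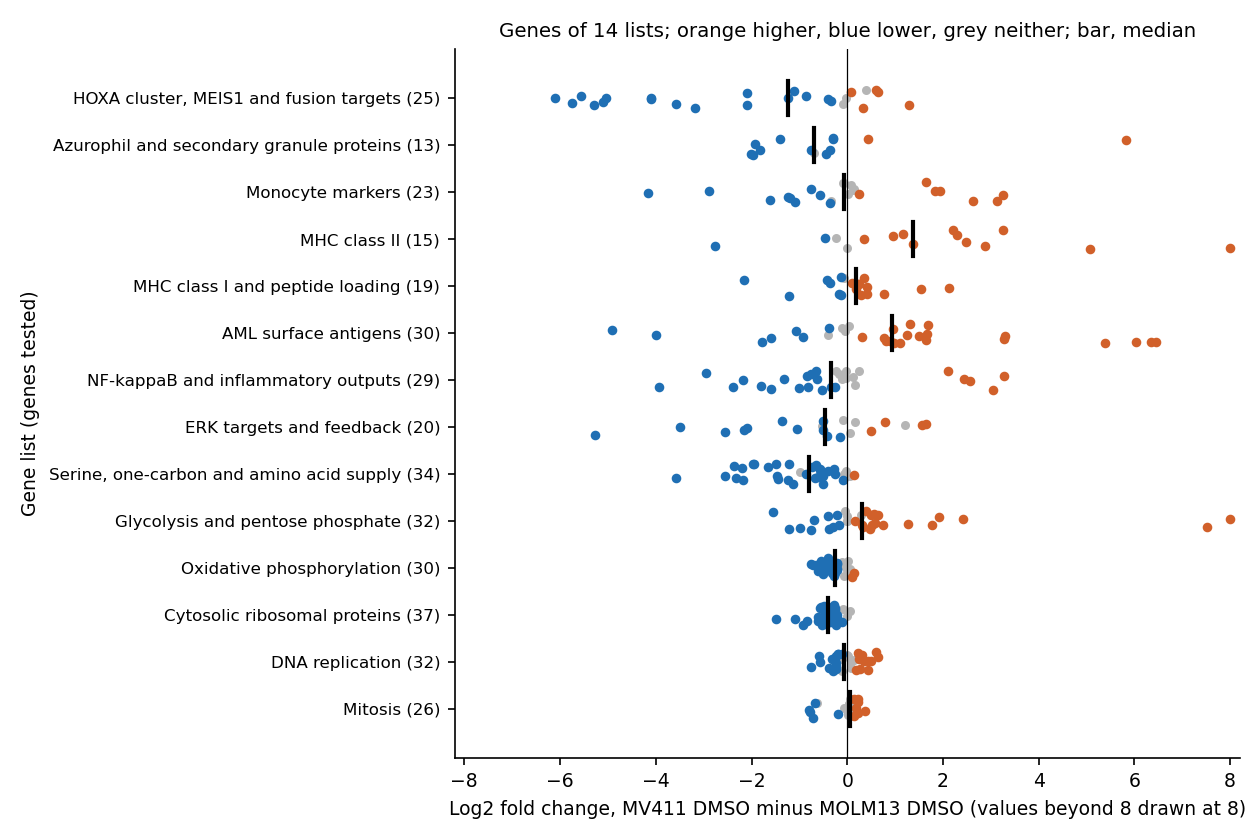
Log2 fold change (MV411 DMSO minus MOLM13 DMSO) of the tested genes of 14 lists, with genes higher in orange, lower in blue and neither in grey, the list's median as a bar and values beyond 8 drawn at 8. The MHC class II list has the highest median (1.38) and the HOXA and fusion target list the lowest (-1.23), and the ribosomal proteins lie close together around -0.41.

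Of 30 surface antigens used to identify or target acute myeloid leukaemia, 19 were higher in MV411 and 7 lower, with a median of 0.93 (0.70 relative to neighbours, 1.37 in the SGI-7079 libraries). CD180, a Toll-like receptor homologue, was at 11.3, 11.8 and 10.7 CPM in MOLM13 and 111, 109 and 112 CPM in MV411 (3.30, SE 0.05). SIGLEC5, a sialic acid-binding receptor, was at means of 0.409 and 17.3 CPM (5.39), with reads it may share with its near-identical neighbour SIGLEC14. CCR1 (1.70) and VSIR, the checkpoint protein VISTA (1.30), were higher too. CD33, the target of gemtuzumab ozogamicin, chosen after its value was seen, was at 77.7 ± 2.51 and 145 ± 4.700 CPM (0.90, SE 0.04).

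NCAM1 (CD56) was lower in MV411 by a wide margin, at 5.44, 4.51 and 5.16 CPM against 149, 153 and 154 CPM in MOLM13 (-4.91, SE 0.08, adjusted p = 2.58e-14). CD93 fell from 95.2 to 5.97 CPM (-3.99), and FUT4, which makes the CD15 antigen, had a log2 fold change of -0.92. Among 24 adhesion genes, 9 were higher and 11 lower, with the integrin chains ITGAL and ITGB7 (1.95) and the hyaluronan receptor CD44 (0.77) higher, and ITGB1 (-1.25) and ITGA4 (-0.45), which pair as VLA-4, lower.

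Most lists of markers of other cell types had low summed levels in both lines. Summed over the B-cell list, the libraries held 25.4 to 26.1 CPM in MOLM13 and 9.97 to 13.9 CPM in MV411, and over the T- and NK-cell list 15.9 to 18.2 and 27.9 to 30.5 CPM. PAX5, the B-lineage factor, was at 14.4, 15.8 and 15.3 CPM in MOLM13 and 0.315, 0.401 and 0.904 CPM in MV411 (-4.80, SE 0.34). ITGA2B (CD41), the platelet integrin chain, had 0 counts in MOLM13 and 12.1, 11.7 and 10.7 CPM in MV411, at least 638-fold higher. Of the other lists, summed levels were 29.6 to 30.99 and 24.4 to 26.03 CPM for megakaryocytes, 5.83 to 7.26 and 5.79 to 7.28 CPM for mast cells, basophils and eosinophils, and 22.4 to 27.5 and 9.74 to 10.9 CPM for stroma and epithelium. The erythroid list had 529.9 to 544 and 508 to 516 CPM, most of it the transferrin receptor TFRC, and the globin genes in the table, HBB and HBZ, were at 0 counts in both lines. The dendritic-cell list had 420.4 to 422 CPM in MOLM13 and 494 to 502 CPM in MV411, of which FLT3, also a gene of progenitors, and TCF4 made the most. Of its 10 genes tested, 6 were lower in MV411 and 3 higher, with a median of -0.92 (-0.65 relative to neighbours). The part of these markers in other results was not tested.

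Among receptor kinases, FLT3 differed little between the lines and CSF1R, KIT and LTK more. FLT3 was at 328, 328 and 326 CPM in MOLM13 and 391, 377 and 386 CPM in MV411 (0.23, SE 0.02, adjusted p = 1.42e-06), a difference that did not reach the fold threshold. AXL, a kinase that SGI-7079 is known to inhibit, was at 9.33, 8.14 and 9.37 and 6.09, 5.11 and 5.73 CPM (-0.66, SE 0.10, adjusted p = 4.53e-05), and its ligand GAS6 at means of 260.0 and 145 CPM (-0.84). KIT, a relative of FLT3, was at 1.84 and 5.05 CPM (1.45). Its ligand KITLG, chosen after its value was seen, was at 10.6 and 0.611 CPM (-4.11). FGFR1 (-1.54) and EPHB4 (-1.28) were lower and LTK higher (3.21). Of 21 receptor kinases and ligands tested, 7 were higher and 9 lower, with a median of -0.18 (-0.21 relative to neighbours).

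Cytokine and chemokine receptors had a median of 0.36 (0.40 relative to neighbours), with 15 of 28 higher and 8 lower. CSF2RB, the common beta chain of the GM-CSF, IL-3 and IL-5 receptors, was at 24.4, 22.8 and 22.7 CPM in MOLM13 and 69.2, 65.6 and 69.9 CPM in MV411 (1.55, SE 0.06). The monocyte chemokine receptor CCR2 had a log2 fold change of 1.49. IL6R (-0.80), IFNGR1 (-0.58) and CX3CR1 (-1.06) were lower.

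Readouts of the pathways below FLT3 did not move together. Of 18 STAT5 targets, 8 were higher and 7 lower. The serine kinase PIM1 was at 17.9, 22.5 and 19.7 CPM in MOLM13 and 91.96, 90.8 and 92.6 CPM in MV411 (2.20, SE 0.08, adjusted p = 3.44e-11), while SOCS2, a feedback inhibitor induced by the same factor, was at 179, 190.3 and 186 and 33.8, 32.1 and 29.9 CPM (-2.54, SE 0.05, adjusted p = 1.40e-13). Both genes separated the lines without overlap, as 61.0% of all genes tested did, and they did so in opposite directions. SOCS3 (1.60) and CISH (0.72) were higher, and MCL1 (-0.44) and MYC (-0.43) lower.

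Of 20 ERK targets, 11 were lower and 4 higher, with a median of -0.46 (-0.38 relative to neighbours). SPRED1, a brake on RAS, was at 17.8, 19.7 and 17.3 CPM in MOLM13 and 0.542, 0.718 and 0.148 CPM in MV411 (-5.28, SE 0.46, adjusted p = 2.86e-07), and SPRY4, another feedback inhibitor, had a log2 fold change of -3.49. Against these, the ERK phosphatases DUSP6 (0.78) and DUSP4 (1.65) and the immediate early gene FOS (1.56) were higher. In the PI3K, RAS and SRC list, 22 of 47 were higher and 17 lower. The PI3K-gamma subunit PIK3R5 rose from 23.1 to 135 CPM (2.55), while STAT3 had a log2 fold change of -1.17 and PTPN11 (SHP2) -0.68.

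The BCL2 family was balanced, 8 higher and 8 lower of 18. BCL2, the target of venetoclax, was at 135, 149 and 143 CPM in MOLM13 and 193, 191 and 191 CPM in MV411 (0.43, SE 0.04), and MCL1 at 344, 355 and 342 and 255, 253 and 258 CPM (-0.44, SE 0.03). The BH3-only gene BMF was higher (15.5 to 66.4 CPM, 2.10), another, BCL2L11 (BIM), lower (-0.88), and the effector BAX higher (0.98). The repair genes XPC (1.25) and DDB2 (0.79) were higher, and FAS (-1.82), SESN1 (-1.06) and SESN2 (-1.34) lower.

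The 9p21 locus on chromosome 9, which holds CDKN2A, showed a break in levels between neighbours. CDKN2B, the p15 inhibitor gene beside CDKN2A, also had 0 counts in MOLM13 and was at 2.099, 1.44 and 1.31 CPM in MV411, at least 89.6-fold higher. MTAP, the neighbour on the other side, was expressed in both lines, at 42.4, 35.9 and 37.3 CPM in MOLM13 and 65.5, 62.9 and 63.8 CPM in MV411 (0.73, SE 0.07). The antisense RNA CDKN2B-AS1 was at 1.46 and 7.05 CPM. Of 12 genes of the locus tested, 8 were higher and 2 lower, the latter MLLT3 and PLAA (-0.31). A deletion and a silent gene were not distinguished by these counts.

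Another cell-cycle inhibitor gene, CDKN2C (p18), differed in the other direction, at means of 141 and 48.1 CPM (-1.55). Of 29 cyclins, kinases and inhibitors, 16 were lower and 10 higher, and the median of -0.27 was 0.09 relative to neighbours. Genes of DNA replication and mitosis differed by small folds. Of 32 replication genes 11 were higher and 14 lower, and the median was -0.06 (-0.02 relative to neighbours). None was called, beside 12.9% called higher and 9.62% called lower of all genes tested. Over genes with a mean of at least 5 CPM, these shares were 7.49% and 7.93%. MCM5, a helicase subunit, was at 288 and 435 CPM (0.60). Of 26 mitotic genes none was called either, and the median was 0.05 (0.03 relative to neighbours). In the SGI-7079 libraries these medians were -1.05 and -0.43.

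Genes of serine and amino acid supply were lower in MV411. Of 34 genes tested, 28 were lower and 1 higher, with a median of -0.80 (-0.68 relative to neighbours). Of the 34, 15 (44.1%) were called lower and 0 called higher, beside 9.62% and 12.9% of all genes tested. ASS1, which joins citrulline and aspartate in arginine synthesis, was at 429, 409.9 and 426 CPM in MOLM13 and 134, 129 and 141 CPM in MV411 (-1.65, SE 0.04). ALDH1L2, a mitochondrial folate enzyme, had a log2 fold change of -2.33, and GOT1, the cytosolic aspartate aminotransferase, -1.98. The serine pathway is given whole: PHGDH, its first enzyme, was at 259, 250.3 and 269 and 43.9, 40.6 and 48.3 CPM (-2.55, SE 0.09, adjusted p = 2.59e-11), PSAT1 had a log2 fold change of -1.24, PSPH -0.74, and SHMT2, which turns serine into glycine, -1.22. ATF4, the transcription factor that drives many of these genes, chosen after its value was seen, was at 495 ± 6.29 and 227 ± 12.3 CPM (-1.12, SE 0.04, adjusted p = 3.74e-11).

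Cytosolic ribosomal protein genes were lower as a group by a small amount. The list holds 38 of these genes, not all of them. Of 37 tested, 34 were lower and none higher, with a median of -0.41 (-0.42 relative to neighbours). The fold threshold was passed by 2, RPL9 (-1.49) and RPS18 (-1.10). These were 5.41% of the list, beside 9.62% called lower of all genes tested. RPS12 and RPL21 (-1.14), called lower among the most abundant genes above, are ribosomal protein genes outside the list. The summed level of the listed genes was 54380.0 to 57223 CPM in the MOLM13 libraries and 40188 to 42691 CPM in the MV411 libraries. Many of these genes have near-identical pseudogenes that can take reads. EEF1A1, the elongation factor that was the most abundant gene of these lists, was at 26509, 25864 and 25848 and 14120.0, 13618 and 14742 CPM (-0.88, SE 0.04). EEF1A1 is in use as a reference gene, and of 27 such genes 10 were higher and 14 lower, with a median of -0.12 (0.03 relative to neighbours).

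Oxidative phosphorylation genes of the nucleus were lower in 21 of 30 cases and higher in 2, with a median of -0.26 (-0.13 relative to neighbours). None was called, beside 12.9% called higher and 9.62% called lower of all genes tested. By number of genes, glycolysis and the pentose phosphate pathway leaned the other way, with 17 of 32 higher, 10 lower and a median of 0.30 (0.26 relative to neighbours). Their summed level was not higher in MV411. It was 13367 to 13998 CPM in the MOLM13 libraries and 12702 to 13763 CPM in the MV411 libraries, ranges that overlap. The glucose transporter SLC2A1 was at 43.5, 43.9 and 40.98 CPM in MOLM13 and 105, 100.02 and 105 CPM in MV411 (1.27, SE 0.06). SLC2A6 (1.77) and PFKFB4 (1.92) were also higher, and LDHB (-0.70), the lactate carrier SLC16A1 (-0.98) and PFKFB3 (-1.55) lower.

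Of 28 lipid synthesis genes, 15 were lower and 8 higher. SCD, which desaturates stearate, was at 653, 637 and 648 CPM in MOLM13 and 195, 187 and 196 CPM in MV411 (-1.74, SE 0.04), and the desaturase FADS1 went the other way (34.5 to 88.1 CPM, 1.35). In the glutathione, redox and iron list, 12 of 34 were higher and 11 lower. Beside ferritin, CAT (catalase) was higher (0.92), while ALDH2 (-2.17), the microsomal transferase MGST1 (-1.48) and PRDX1 (-0.89) were lower.

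Genes that handle cytarabine, the standard drug of this disease, differed in single steps. Of 19 tested, 6 were higher and 7 lower. The equilibrative transporter SLC29A2 was at 36.5, 40.01 and 37.3 CPM in MOLM13 and 1.54, 1.905 and 2.22 CPM in MV411 (-4.33, SE 0.14, adjusted p = 1.43e-11), and SLC29A1, the main carrier of the drug, had a log2 fold change of -1.01. SAMHD1, which breaks down the active triphosphate, was at 229.7 ± 6.85 and 451 ± 11.6 CPM (0.97, SE 0.03).

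Chromatin regulators were mostly level, with a median of 0.03 (-0.01 relative to neighbours) over 30 genes, 9 higher and 8 lower. Of the 30, 1 was called higher (3.33%) and 3 called lower (10%), beside 12.9% and 9.62% of all genes tested. BMI1, the Polycomb subunit of haematopoietic self-renewal, was at 382, 398 and 371 CPM in MOLM13 and 36.5, 40.8 and 36.1 CPM in MV411 (-3.34, SE 0.05, adjusted p = 1.09e-14). HDAC9 fell from 57.2 to 8.65 CPM (-2.73), and KDM5B, an H3K4 demethylase, rose from 34.4 to 91.5 CPM (1.41). DNMT1 and DNMT3A had log2 fold changes of 0.16 and 0.26.

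Genes whose level marks subsets of acute myeloid leukaemia contained some of the widest gaps. HMGA2, an oncofetal chromatin protein, was at 62.2, 64.5 and 66.9 CPM in MOLM13 and 1.15, 2.04 and 1.03 CPM in MV411 (-5.51, SE 0.17, adjusted p = 1.12e-11), and its companion in fetal programmes IGF2BP3 at 48.9, 47.7 and 44.8 and 0.542, 0.601 and 0.542 CPM. LIN28B, which blocks the maturation of let-7 miRNAs, was singled out after its value was seen, at 14.2, 16.4 and 13.3 and 0.3498, 0.702 and 0.444 CPM (-4.87, SE 0.25). WT1 (-1.56) and VEGFA (-2.03) were lower too, and IGF2BP2 higher (0.50). Over the 22 genes of this list tested, 11 were higher and 9 lower.

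Of 12 stem and progenitor genes tested, 5 were lower in MV411 and 3 higher. LAPTM4B, a member of a stemness score of leukaemic cells, was at 155, 158 and 156 CPM in MOLM13 and 14.4, 15.6 and 15.8 CPM in MV411 (-3.36, SE 0.06). Imprinted genes, of which normally 1 parental copy is active, had 11 higher and 8 lower of 24. Beside NDN, MKRN3 of the same Prader-Willi region (16.9 ± 1.29 CPM in MV411) and FAM50B (13.3 ± 1.35 CPM) had 0 counts in MOLM13. SNRPN, also of that region, was expressed in both lines at 156 ± 4.42 and 132 ± 6.03 CPM (-0.24). GNAS (-1.18) and GRB10 (-1.18) were lower in MV411.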

How the data were processed

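Per the labels' protocols, total RNA was selected on oligo(dT) beads, copied into dUTP-marked libraries and sequenced in pairs on an Illumina NovaSeq instrument. Per the submitters' processing notes, reads were handled on hg38 with tools that include HISAT2 2.2.1, cutadapt 1.9 and StringTie 2.1.6, beside edgeR and DESeq2; the series' description names featureCounts. Strand use and the treatment of reads matching several genes are not given in the sources used here. The 1 deposited table gives, per gene and library, a raw count and the FPKM value that the authors computed, per the file headers, for 36041 genes. Positions came from the deposited table, gene types from GENCODE 44 (35731 identifiers matched, 30366 of them at the same start and end), and promoters from RefSeq.

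Counts of all 21438 genes passing filterByExpr (minimum count 10) were scaled with TMM and tested by quasi-likelihood (edgeR 4.0.16, R 4.3.3), as 1 mean per line and treatment over the 12 libraries. The contrast was MV411 DMSO minus MOLM13 DMSO, with Benjamini-Hochberg adjustment over all genes tested; only autosomal genes are reported. Each SE was derived from the log2 fold change and its F statistic, as their size over the root of F. CPM, ± SD over 3 libraries, use TMM-scaled library sizes, and intervals or limits at 0 cover counting error only. A limit of 3 counts over a group is 0.0180 CPM in MOLM13 and 0.0169 in MV411. FPKM served in an alternative (limma 3.58.1 on log2(FPKM + 1)), and DESeq2 1.42.0 in another. Counts of replicates differed beyond Poisson noise, with a chi-square of 9.31 to 13.7 per degree of freedom, and no pair was treated as 1 library. Simulated counts of this comparison over 20609 genes held 50 planted genes at each fold, scored by adjusted p and direction alone. At 1.5-, 2-, 3- and 4-fold, 40%, 68%, 62% and 78% of all planted genes were found. Among those with at least 100 counts, 55.6%, 87.2%, 100% and 97.3% were found. Over all genes, 3 were false. No other gene was changed, so the rates do not describe a comparison with as many differences as this one.

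Genes were named by a rule: the 12 largest called changes per direction among protein-coding genes of at least 10 CPM, the 8 most abundant and 4 long non-coding RNAs per direction, up to 10 genes with no counts in one line, and the 3 members with the smallest adjusted p per direction in each of 46 lists, with 15 genes fixed by name; some of these genes are not reported here. Members and lists were chosen with earlier results of these data known. Genes outside the rule are given where a cluster or pathway is shown whole, or are said to be chosen after their values were seen; SPI1, CD33, SNRPN, DNMT1 and DNMT3A are among the latter. Alternatives were other size factors, no filter, only the 6 libraries, DESeq2, FPKM, a replicate block and leaving out each library.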

Additional observations from a re-analysis of the deposited data

Results flagged for a closer look

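For 3 genes of the lists, the difference between the lines passed the test in opposite directions in DMSO and in SGI-7079 libraries, and the difference of the 2 effects was itself tested as an interaction over all genes (edgeR's quasi-likelihood test, Benjamini-Hochberg adjustment). SLC7A11, the cystine importer, was lower in MV411 under DMSO, at 13.3 ± 2.14 CPM against 37.4 ± 4.84 CPM in MOLM13 (SD, n = 3; log2 fold change -1.49, SE 0.12), and higher under SGI-7079, at means of 58.95 and 13.03 CPM (2.18, SE 0.12). The effects differed by 3.67 (SE 0.17, adjusted p = 1.97e-08). CHAC1, which degrades glutathione, had log2 fold changes of -1.44 (SE 0.17) and 0.91 (SE 0.18), a difference of 2.35 (SE 0.25, adjusted p = 1.75e-05). CD1A, a lipid-presenting molecule of dendritic cells, had fitted values of -6.86 and 5.07 that rest on levels of at most 0.246 CPM, with no count in 2 of the 4 groups (difference 11.9, adjusted p = 0.011). Groups of 3 libraries were too small for the rule on outlying samples.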

How the results depend on the processing

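The counts of called autosomal genes stayed within 1.5 times of 2676 higher and 1991 lower with DESeq2, other size factors, no filter and only the 6 DMSO libraries. With limma on log2(FPKM + 1), they were 789 and 574, and in the SGI-7079 libraries 1092 and 694 against 2803 and 2221; the added 1 shrinks the fold of low genes by construction. Without each library in turn, the counts were 2553 to 2765 higher and 1921 to 2051 lower, and in the SGI-7079 libraries 2480 to 2879 and 2153 to 2504. Labels share replicate numbers, and same-numbered DMSO libraries of the lines deviated together only weakly (r = 0.0185 to 0.0295). Still, each correlated best with its own number, with r of at most 0.0052 for other numbers. Whether the numbers pair the libraries is thus not settled, and the main fit left them unpaired. A fit with the replicate as a block called 2577 higher and 1940 lower, and 2748 and 2169 in the SGI-7079 libraries. The 298 named genes were checked under 18 settings by direction and adjusted p alone, without the fold threshold. Of 5362 log2 fold changes, 5328 kept their direction and their side of an adjusted p of 0.05. A further 26, of 6 genes, no longer passed that p. CAMP is the 1 of these described above: its adjusted p was 0.066 under the block and 0.055 to 0.070 without one of 5 DMSO libraries, each MOLM13 library and MV411 replicates 1 and 2. Reversals were of genes that did not differ in the main test. HOXA9 had 0.00609 with DESeq2, 0.065 with FPKM, 0.00972 without MOLM13 DMSO replicate 3 and 0.00229 without MV411 DMSO replicate 2, in a leave-one-out range of -0.043 to 0.00972. CD14 had -0.32 and -0.20 without MOLM13 DMSO replicates 1 and 3, and -0.06 and -0.02 without MV411 DMSO replicates 1 and 3, in a range of -0.32 to 0.81. Chromosome medians moved by less than 0.1 under the other settings on counts, and with FPKM those of chromosomes 13, 10 and 12 were -0.49, -0.35 and -0.22. Depth limits low genes most: genes with a mean under 5 CPM gave 1881 of the 2676 higher and 1150 of the 1991 lower calls.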

Other observations

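Among genes with counts in both lines, the 12 largest called increases, listed after the data were seen because the 12 largest overall had no counts in MOLM13, were led by EMP2, a tetraspan membrane protein, at 0.0235 ± 0.0407 CPM in MOLM13 and 29.6 ± 1.28 CPM in MV411 (SD, n = 3; log2 fold change 10.14, SE 0.45). HORMAD1, a meiotic chromosome protein of the cancer-testis group, was at 0.0426 ± 0.0378 and 35.2 ± 3.06 CPM (9.64), and B3GNT7, a glycosyltransferase, at 0.713 ± 0.252 and 339 ± 8.36 CPM (8.90). KCNK10, a potassium channel, was at 0.2698 ± 0.0773 and 58.1 ± 3.296 CPM (7.74), and SIGLEC12 at 0.229 ± 0.212 and 56.7 ± 1.302 CPM (7.94). The others, ZNF93, NHLRC3, RAB32, COL6A1, APBB1, FUZ and UTF1, had log2 fold changes from 7.58 to 8.79. In the SGI-7079 libraries all of the 12 were higher in MV411 as well.

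Long non-coding RNAs gave a further set of wide gaps. CCDC144NL-AS1 was at 83.9, 86.3 and 84.6 CPM in MOLM13 and 2.76, 1.704 and 2.61 CPM in MV411 (-5.17, SE 0.13), and CCDC144NL, which it overlaps on the opposite strand, at means of 10.1 and 0.332 CPM, so that their reads cannot be told apart. TRHDE-AS1 had a log2 fold change of -5.10 and PCED1B-AS1 -5.13. C2orf74-DT had no counts in MOLM13 and 10.5 ± 1.18 CPM in MV411, and TEKT4P2 was at 0.05496 and 11.4 CPM.

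Of the 16 autosomal genes called under DMSO that passed the adjusted p in the opposite direction under SGI-7079, 3 are given above, and 4 have symbols and at least 5 CPM in a group. CKB, a creatine kinase, went from -1.34 to 1.64, PYCR3, of proline synthesis, from 1.10 to -0.57, GLB1L2 from 1.89 to -1.02 and ARHGAP31 from -1.51 to 0.62 (log2 fold change, MV411 minus MOLM13).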
